A study of Mus musculus with 4 samples.

Results

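Genes of cholesterol and fatty acid synthesis were followed across 4 Affymetrix expression arrays of mouse primary intestinal epithelial cells, 1 array for each group. The members were 30 genes chosen by symbol: enzymes of the sterol pathway, enzymes of fatty acid synthesis, and the regulators that both share. Of these, 29 had a probe set whose annotation gave that symbol alone, out of 18193 genes with such a probe set. They were 17 sterol enzymes, 7 fatty acid enzymes, and 5 regulators and sterol carriers. The remaining member, Acat2, which joins acetyl-CoA units at the start of the sterol pathway, had no such probe set in the annotation used here and is not analysed. All 29 lay above the floor on every array. The floor was the median of all signals, 89.8 in arbitrary units, to which lower signals were raised. The 12258 genes that exceeded it anywhere are called measured.

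The groups were untreated cells, cells given IL-17A at 50 ng/ml, cells given FGF2 at 5 ng/ml, and cells given both at these doses, each stimulation lasting 6 h. The cells were grown from intestinal crypts on fibronectin in medium that, for all 4 groups, contained serum and insulin. Strain, age and the number of animals were not given in the sources used here. IL-17A is a cytokine made by lymphocytes at barrier surfaces, FGF2 is a growth factor that signals through receptor tyrosine kinases, and the series' title names their cooperation in healing of the intestinal epithelium as its subject.

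Cells build cholesterol from acetyl-CoA through mevalonate, squalene and lanosterol, and build fatty acids from acetyl-CoA through malonyl-CoA. Both pathways are under the transcription factors SREBP1 and SREBP2, which are encoded by Srebf1 and Srebf2 and are held in the endoplasmic reticulum with SCAP by INSIG proteins while sterols are plentiful. SREBP2 acts mainly on the sterol genes and SREBP1 mainly on the fatty acid genes. In the intestine these genes supply membranes of dividing crypt cells and lipids that absorptive cells export.

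SREBP proteins bind sterol response elements and act together with NF-Y, which binds CCAAT boxes, so promoter sequence is shown for members of both branches. RefSeq promoters (GRCm38.p6), each running from 250 bases before to 50 bases after a start site, were at hand for 24 of the 30 members. Both strands were searched for TCACNCCAC, a core of the sterol response element, for CCAAT and for CACGTG, an E-box. The CCAAT box was present for 21 of 24 members (87.5%), against 42.5% of the 9872 measured genes with a promoter, 41.1% of all 27025 genes of the table, and 37.4% of its 32851 promoters. By branch it was found for 14 of 15 sterol enzymes, 4 of 4 regulators and 3 of 5 fatty acid enzymes. TCACNCCAC was found for 1 member, Hmgcs1, and for 1.39% of measured and 1.44% of all genes. CACGTG was found for 4 members, Hsd17b7, Sc5d, Dhcr7 and Insig1 (16.7%), and for 11.6% of measured and 8.09% of all genes. A gene with several start sites was counted once if any of its windows held a match. A match describes letters, not binding, and its absence says only that these letters are not in the window.

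The 250 bases before the start site are given 5′ to 3′ for Hmgcs1 and Idi1, an early and a middle sterol enzyme, and for Fasn and Elovl6, fatty acid enzymes that differed on these arrays. Capitals mark matches to any of the 3 motifs on either strand, and in Fasn 2 matches to the CCAAT box, on opposite strands, overlap. The regions are chr13:119690101-119690350 (plus strand), chr13:8885356-8885605 (plus), chr11:120824548-120824797 (minus) and chr3:129532136-129532385 (plus), in that order. The start sites of Hmgcs1, Idi1 and Elovl6 are the outer ends of their genes in RefSeq, and that of Fasn lies 619 bases inside its gene.
Hmgcs1: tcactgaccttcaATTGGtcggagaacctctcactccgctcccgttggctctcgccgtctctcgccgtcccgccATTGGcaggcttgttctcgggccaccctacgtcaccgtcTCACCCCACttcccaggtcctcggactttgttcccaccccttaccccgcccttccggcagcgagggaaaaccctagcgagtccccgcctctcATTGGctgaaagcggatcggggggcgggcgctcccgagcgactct
Idi1: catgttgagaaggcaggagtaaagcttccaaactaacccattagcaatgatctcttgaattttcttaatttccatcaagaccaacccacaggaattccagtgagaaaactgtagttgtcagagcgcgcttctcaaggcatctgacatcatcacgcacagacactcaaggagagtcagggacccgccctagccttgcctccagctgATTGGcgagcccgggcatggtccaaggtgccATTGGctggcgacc
Fasn: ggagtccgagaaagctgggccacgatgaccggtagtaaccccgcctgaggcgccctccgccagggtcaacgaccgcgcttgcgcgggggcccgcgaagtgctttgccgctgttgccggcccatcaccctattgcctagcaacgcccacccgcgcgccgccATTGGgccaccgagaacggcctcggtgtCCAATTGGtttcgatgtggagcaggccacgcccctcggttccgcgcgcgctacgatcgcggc
Elovl6: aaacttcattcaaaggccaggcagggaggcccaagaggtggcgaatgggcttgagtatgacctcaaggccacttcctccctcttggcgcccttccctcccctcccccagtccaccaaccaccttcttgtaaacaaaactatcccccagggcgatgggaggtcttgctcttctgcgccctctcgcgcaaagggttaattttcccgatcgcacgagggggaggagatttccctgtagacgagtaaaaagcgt
Hmgcs1 has its TCACNCCAC match 137 bases before the start site, and CCAAT matches at 237, 176 and 45 bases before it. Idi1 has CCAAT at 45 and 14 bases. Fasn has CCAAT matches at 90, 62 and 59 bases before the start, and in the window shown for Elovl6 none of the 3 motifs occurs. The single window of Acaca in the table, also without a match, belongs to a start site 65.8 kb inside the gene, and the windows of Srebf1 likewise begin inside its gene, so neither describes the outermost promoter.

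With 1 array per group there is no replicate and no test, so every value below is a difference between arrays. Precision is limited by the number of arrays, and how far cultures or animals would differ is unknown. The layout still offers a measure of error. An effect of FGF2 can be read from FGF2 against untreated and, with no array in common, from both factors against IL-17A. The difference between these readings is the joint term (log2 both − IL-17A − FGF2 + untreated). Its SD over measured genes, divided by the square root of 2, was 0.29 (the yardstick) for a log2 ratio at mean log2 signals under 8, 0.20 at 8 to 10, 0.13 at 10 to 12 and 0.09 above 12. True joint responses raise this yardstick and the floor lowers it for dim genes, and it is no test. It also takes 1 probe set per gene. In the 17 members with several probe sets over the floor, log2 ratios varied between probe sets of a gene with an SD of 0.17 to 0.23. That is more than the yardstick at mean log2 signals over 10. Median log2 ratios also varied with brightness. For both factors against untreated the median was 0.00 over all measured genes and 0.05 over the 4360 with a mean log2 signal of 10 or more, where most members lie.

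Most fatty acid enzymes were higher on the 2 arrays with FGF2 than on the matched arrays without it. Of the sterol enzymes, 15 of 17 were higher with FGF2 alone and 8 of 17 in the presence of IL-17A. Above 0 in these readings were 46.1% and 49.6% of all measured genes. Of the 4360 genes with a mean log2 signal of 10 or more, 55.7% and 60.0% were. The median log2 ratio of the 7 fatty acid enzymes was 0.29 for FGF2 against untreated and 0.23 for both factors against IL-17A, with 5 of 7 above 0 in both readings. The 17 sterol enzymes had medians of 0.13 and −0.01, with 7 of 17 above 0 in both. The second sterol median depends on the scaling and was 0.11 when each array was centred on its median, where the fatty acid median was 0.35. Over all measured genes 31.6% were above 0 in both readings and 32.9% below 0 in both. Of all 29 members, 15 were above 0 in both, and 3 (Tm7sf2, Insig2 and Acaca) were below 0 in both.

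**Figure D1:**
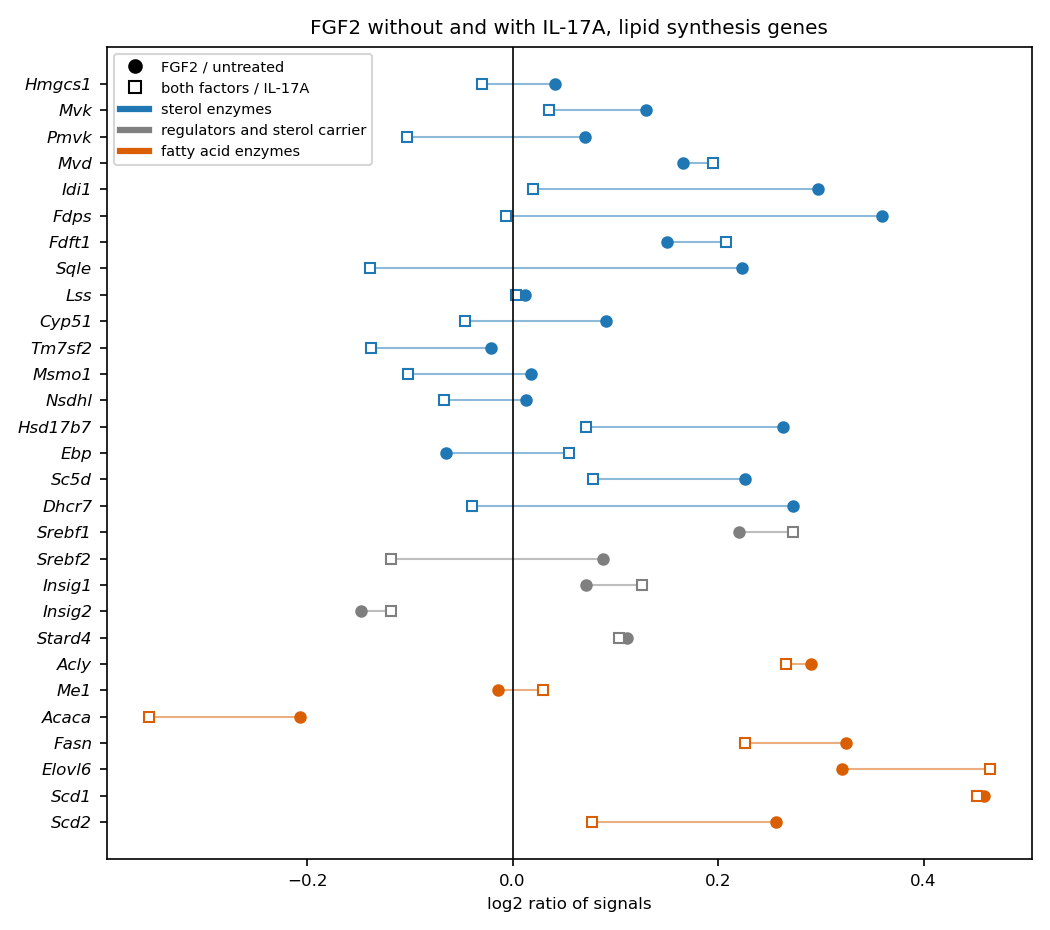
Log2 ratios of signals for the 29 members, with FGF2 against untreated as filled circles and both factors against IL-17A as open squares, coloured by branch; the pair of points of a gene share no array. Scd1, Elovl6, Fasn and Acly lie above 0.2 in both readings and Acaca below −0.2, while for sterol enzymes such as Fdps and Sqle the filled circle lies to the right and the open square at or below 0.

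The largest difference among the members was in Scd1, the delta-9 desaturase that makes oleate and palmitoleate. Its signals were 1787 on the untreated array, 2023 with IL-17A, 2457 with FGF2 and 2768 with both. The 2 arrays with FGF2 lay above the other 2, and the combined array was highest. Scd1 was 1.37-fold higher with FGF2 alone and 1.37-fold higher with both factors than with IL-17A, an average log2 ratio of 0.46 from readings that differed from their average by 0.0035. Against untreated cells both factors gave 1.55-fold, and IL-17A alone 1.13-fold. A dimmer probe set of Scd1 had log2 ratios of 0.34 and 0.40 in the FGF2 readings and 0.29 for both factors against untreated.

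Elovl6, the elongase that turns palmitate into stearate, had signals of 1037 untreated, 1034 with IL-17A, 1294 with FGF2 and 1427 with both. Here too the arrays with FGF2 stood above the others, and IL-17A alone left the signal where it was. The log2 ratio was 0.32 for FGF2 against untreated, and both factors gave 1.38-fold against IL-17A and 1.38-fold against untreated. Its dimmer probe set disagreed on IL-17A. There the signals were 339, 504, 449 and 485, with log2 ratios of 0.40 for FGF2 against untreated and −0.05 for both factors against IL-17A.

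Fasn encodes fatty acid synthase, the enzyme that assembles palmitate, and had signals of 1590, 1654, 1992 and 1934 in the same order. The log2 ratio was 0.32 for FGF2 alone and 0.23 for both factors against IL-17A. Acly, which cleaves citrate to give cytosolic acetyl-CoA to both branches, had signals of 4769, 4969, 5834 and 5977. Its ratios were 1.22- and 1.20-fold, and 2 further probe sets of Acly were also above 0 in both readings, at log2 0.60 and 0.17 and at 0.06 and 0.17. For both genes, as for Scd1 and Elovl6, the 2 arrays with FGF2 lay above those without. The share of all measured genes whose arrays separate this way, in either direction, was not counted.

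Scd2, a second delta-9 desaturase, was higher with FGF2 alone but little higher in the other reading. Its signals were 12907, 14148, 15416 and 14925, so the FGF2 ratios were 1.19-fold and, in the presence of IL-17A, 1.05-fold. The other 2 probe sets of Scd2 gave log2 ratios of 0.41 and 0.33 for FGF2 alone, and −0.15 and −0.09 for both factors against IL-17A. Me1, the malic enzyme that supplies NADPH, stayed between 2000 and 2041 on all 4 arrays in its brightest probe set. Its other probe set read 1248, 1390, 1384 and 1489, lowest in untreated cells, with log2 ratios of 0.15 and 0.10 in the FGF2 readings.

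Acaca went the other way. It encodes acetyl-CoA carboxylase 1, which makes malonyl-CoA and commits carbon to fatty acids. Its signals were 624 untreated, 653 with IL-17A, 541 with FGF2 and 511 with both, so the arrays with FGF2 were the low ones. It was lower by log2 ratios of −0.21 with FGF2 alone and −0.35, or 1.28-fold, with both factors than with IL-17A. At its brightness 1 yardstick SD is 0.20, and its average log2 ratio for FGF2 was −0.28. Its single other probe set was under the floor.

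**Figure D2:**
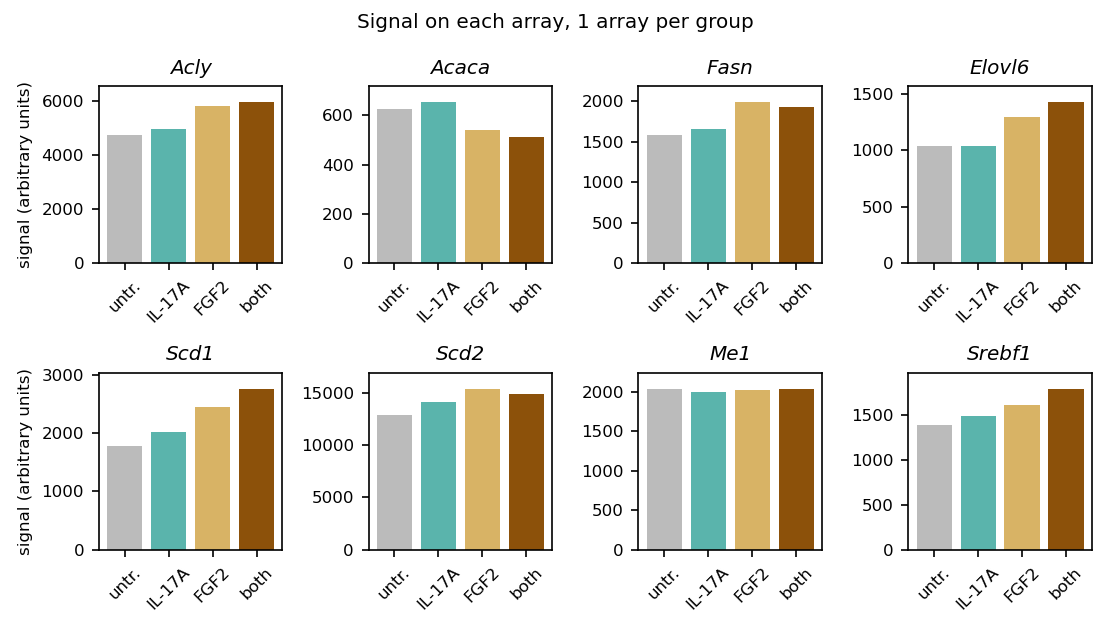
Signal of 8 genes on each of the 4 arrays (bars from 0, arbitrary units, 1 array per group and so no error bars; untr., untreated; both, IL-17A plus FGF2). Scd1, Elovl6, Fasn and Acly are higher on the FGF2 and combined arrays, Acaca is lower there, Me1 is level in the probe set shown and Srebf1 is highest on the combined array.

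Among the regulators, Srebf1 and Srebf2 differed. Srebf1 had signals of 1381, 1481, 1609 and 1789 in the order used above. It was 1.17-fold higher with FGF2 alone, 1.21-fold with both factors against IL-17A and 1.30-fold with both against untreated, in its only probe set over the floor, which recognises several transcripts of the gene. Srebf2 had signals of 1055, 1132, 1121 and 1043, with log2 ratios of 0.09 and −0.12 in the FGF2 readings. A dimmer probe set of Srebf2 was highest in untreated cells (470) and lay between 350 and 368 on the others.

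The INSIG genes also parted. Insig1, itself a target of SREBP, had signals of 2943, 2760, 3092 and 3012 and log2 ratios of −0.09, 0.07 and 0.03 against untreated. Insig2, whose product holds back SREBP in the same way, was highest untreated (1269) and lowest with both factors (1050), with 1139 and 1146 between them. Both factors gave 1.21-fold lower Insig2 than untreated, and its 2 other probe sets were also below untreated there, at log2 −0.45 and −0.13. Stard4, a carrier of cholesterol through the cytosol, had signals of 1068, 973, 1154 and 1046 and average log2 ratios for FGF2 of 0.11, 0.24 and 0.14 in its 3 probe sets.

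In the sterol pathway, the first steps make and activate mevalonate. Hmgcs1, the HMG-CoA synthase, was level in its brightest probe set, a type that can cross-hybridise, at 10722, 10718, 11031 and 10498. Its other 4 probe sets gave log2 ratios of 0.15, 0.20, 0.01 and −0.01 for FGF2 against untreated. For both factors against untreated they gave 0.14, 0.11, −0.23 and −0.10. Of the kinases and the decarboxylase that follow, Mvd had signals of 358, 413, 402 and 472 and was 1.32-fold higher with both factors than untreated. Its other probe set gave a log2 ratio of 0.46 against 0.40 here, so both were highest on the combined array. Mvk had 306, 362, 335 and 371, but its other probe set was lower with both factors than untreated (log2 −0.41). Pmvk had 921, 863, 967 and 803 and was lowest on the combined array.

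Of the isoprenoid and squalene steps, Fdps, Idi1 and Sqle were highest with a single factor. Fdps, farnesyl diphosphate synthase, had signals of 4568, 5062, 5860 and 5040. It was 1.28-fold higher with FGF2 alone and level (log2 −0.01) between both factors and IL-17A. Sqle, squalene epoxidase and a rate-limiting enzyme of the pathway, had signals of 3228, 3859, 3767 and 3505, and so was higher with either factor (1.20-fold with IL-17A, 1.17-fold with FGF2) than with both (1.09-fold). Idi1, the isomerase of isopentenyl diphosphate, had 4494 untreated, 5229 with IL-17A, 5524 with FGF2 and 5303 with both, so all 3 stimulated arrays were above untreated. Another probe set of Idi1 ran the other way, from 2331 untreated to 1864 with FGF2. Fdft1, squalene synthase, had 4737, 4669, 5258 and 5393 and was above 0 in both FGF2 readings (1.11- and 1.16-fold), though only in the first of them in its other probe set over the floor (log2 0.10 and −0.06).

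Of the later steps, Lss (lanosterol synthase), Cyp51, Nsdhl, Ebp and Tm7sf2 had log2 ratios between −0.18 and 0.09 in all 3 comparisons with untreated, in their brightest probe sets. Lss and Cyp51 each had 2 other probe sets over the floor. For IL-17A, FGF2 and both factors, those of Lss gave −0.30, −0.18 and 0.24, and 0.08, 0.12 and 0.05. Those of Cyp51 gave 0.03, −0.15 and −0.22, and, in a dim one, 0.32, 0.44 and 0.34. Msmo1, the C4 methyl oxidase, was lowest on the combined array, with signals of 8698, 8225, 8805 and 7665. Sc5d (3375, 3378, 3948 and 3566) and Dhcr7 (314, 338, 379 and 329), the desaturase and reductase that end one route to cholesterol, were highest with FGF2 alone, 1.17- and 1.21-fold over untreated. Hsd17b7 was 1.20-fold higher with FGF2 in its brightest probe set, a type that can cross-hybridise, and its 2 other probe sets over the floor gave log2 ratios of 0.14 and −0.11.

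Read over the 4 arrays, 10 of 17 sterol enzymes had their highest signal on the FGF2 array, against 21.9% of all measured genes. On the combined array 3 of 17 did so, against 28% of all. Some of the 10 led by less than 1 yardstick SD: Lss, Msmo1 and Hmgcs1 were log2 0.01, 0.02 and 0.04 over untreated. For Hmgcs1, Idi1, Lss, Cyp51 and Hsd17b7 another probe set was highest on a different array. All of these but Idi1 also had a further probe set highest with FGF2. Of the 7 fatty acid enzymes, 4 (Acly, Me1, Elovl6 and Scd1) were highest on the combined array and 2 (Fasn and Scd2) on the FGF2 array. Me1 was so only by 2041 against 2039 untreated. The sterol median minus the fatty acid median was −0.16 for FGF2 against untreated, −0.21 for both factors against untreated and −0.23 for both against IL-17A. In the comparisons for IL-17A it was −0.05 for IL-17A against untreated and −0.14 for both against FGF2. The branches were not compared by a test, and members of a branch share their arrays. When the probe sets of each gene were averaged, the fatty acid median was 0.13 for both factors against untreated and 0.10 for both against IL-17A.

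**Figure D3:**
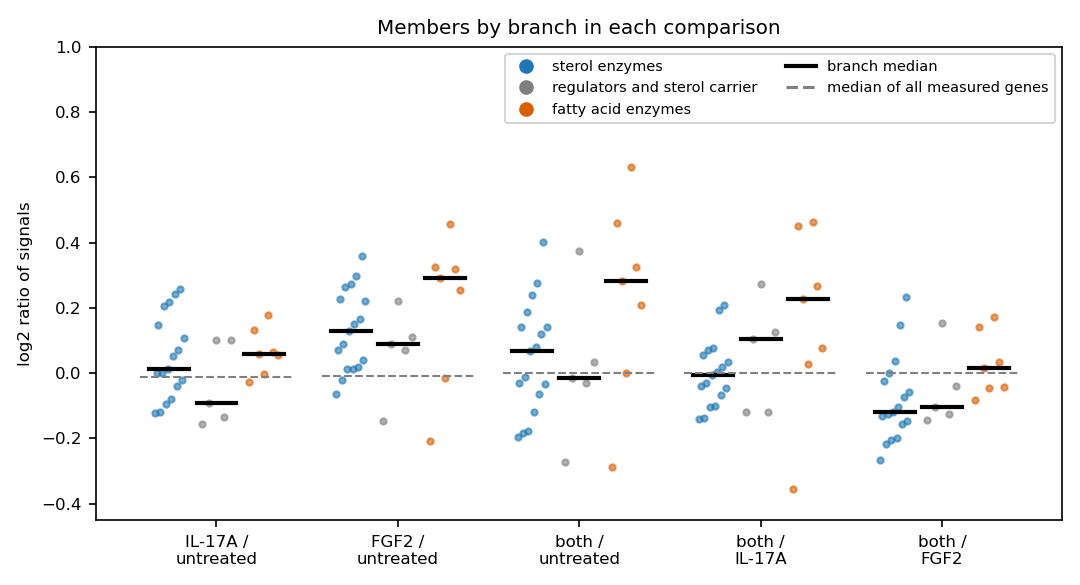
Log2 ratios of the members in 5 comparisons, 1 point per gene, coloured by branch; black bars are branch medians and dashed lines the median of all measured genes. The fatty acid median lies at 0.29, 0.28 and 0.23 in the 3 comparisons of an array with FGF2 against one without, and near 0 in both comparisons for IL-17A; the sterol median is 0.13 for FGF2 alone and −0.12 for both factors against FGF2.

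By size, few members passed a fold threshold. At 1.5-fold, Scd1 with both factors against untreated was the 1 member of 29 that was higher, against 3.34% of all measured genes, and none was lower (6.52% of all). In the other comparisons 0 of 29 passed 1.5-fold in either direction. All measured genes did so, higher and lower, in 1.44% and 1.95% for IL-17A and 2.34% and 4.82% for FGF2 against untreated, 2.8% and 4.09% for both factors against IL-17A, and 1.83% and 2.06% for both against FGF2. At a log2 difference of at least 0.322, 3 members were higher with FGF2 alone (Fdps, Fasn and Scd1; 8.81% of all genes) and 5 with both factors against untreated (Mvd, Srebf1, Acly, Elovl6 and Scd1; 10.6%). In both factors against IL-17A, 2 were higher (Elovl6 and Scd1; 9.72%) and 1 lower (Acaca; 12.9%). None was lower by as much with FGF2 alone (14.6% of all genes) or with both against untreated (16.2%). For IL-17A, 0 of 29 passed it in either reading, against 5.8% higher and 8.58% lower for IL-17A alone and 7.37% and 7.82% for both factors against FGF2. As shares of the 29, these counts are 10.3% with FGF2 alone, near the background, 17.2% with both factors against untreated, above it, and 6.90% higher with both against IL-17A, below it. Past the 99th percentile of the yardstick at their brightness were Fdps and Scd1 with FGF2 alone, Acly, Elovl6 and Scd1 with both factors against untreated, and Elovl6 and Scd1 with both against IL-17A. Of all measured genes 2.64%, 4.17% and 2.9% were higher by that much in these comparisons. Ratios were not centred by brightness for this or for the fold thresholds. For both factors against untreated, Acly was at 0.33 against a 99th percentile of 0.30. Measured genes of its brightness had a median of 0.11 there, so Acly passed only with that shift left in. The same holds for the log2 difference of 0.322, which Acly passed at 0.326.

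IL-17A by itself went with small differences. The sterol median was 0.01 for IL-17A against untreated and −0.12 for both factors against FGF2, where 14 of 17 sterol enzymes were below 0, Pmvk lowest at −0.27. In all measured genes 47.1% were below 0 in that comparison. Over both readings of IL-17A, 5 members were higher in both (Mvk, Mvd, Srebf1, Acly and Scd1), or 17.2% against 25.8% of all genes. Lower in both were 9 members, or 31.0%, near the 28.4% of all genes. They were Insig1, Insig2, Stard4 and 6 sterol enzymes, with 0 of 7 fatty acid enzymes. Among the 5 higher members, other probe sets went against Mvk, Scd1 and Acly. That of Mvk was lower in both IL-17A readings (log2 −0.57 and −0.47, against 0.24 and 0.15 in the brightest). That of Scd1 was at −0.11 and −0.04 (against 0.18 and 0.17). A dimmer probe set of Acly was at 0.05 and −0.38 (against 0.06 and 0.04), while another was above 0 in both. Among the 9 lower, Hmgcs1, Lss, Insig2 and Stard4 each had another probe set above 0 in a reading. Further probe sets of Hmgcs1, Insig2 and Stard4 were below 0 in both.

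The joint term was below 0 for 14 of 17 sterol enzymes, with a median of −0.12, against 46% of all measured genes and a median of 0.02. It was lowest for Fdps (−0.37), Sqle (−0.36), Dhcr7 (−0.31) and Idi1 (−0.28). For those, in the brightest probe sets, the combined array was lower than the sum of the separate log2 differences. The other probe set of Idi1 gave 0.17, and Fdps, Sqle and Dhcr7 had no other over the floor. In the fatty acid branch the joint term was below 0 for 5 of 7 with a median of −0.02. In their brightest probe sets Scd1 (−0.01) and Acly (−0.02) were close to additive. Their other probe sets over the floor gave 0.07 for Scd1, and −0.43 and 0.11 for Acly. The joint term uses all 4 arrays, so a deviation of any 1 of them would move it for every gene that shares that deviation, and this was not tested.

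**Figure D4:**
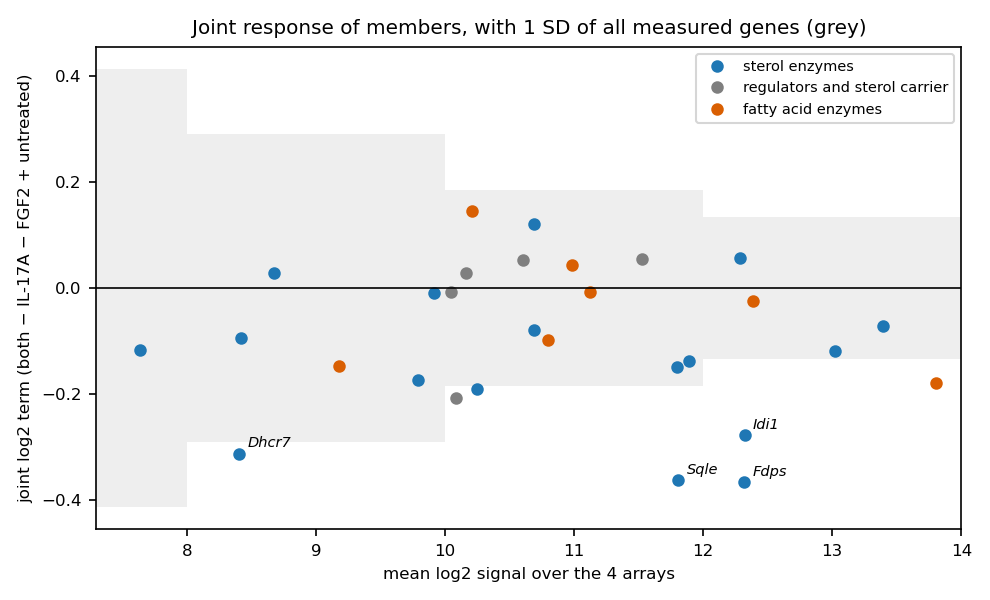
Joint log2 term (both − IL-17A − FGF2 + untreated) of each member against its mean log2 signal; the grey band is 1 SD of this term over all measured genes of the same brightness. Most sterol enzymes lie below 0, and Fdps, Sqle, Idi1, Dhcr7, Hsd17b7, Srebf2 and Scd2 lie below the band.

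Genes around these pathways were read from a list of 39, of which 33 had a probe set with 1 symbol and 32 were measured. They covered SREBP processing, further synthesis steps, and uptake, efflux and storage. None was at least 1.5-fold higher in any of the 5 comparisons. At least 1.5-fold lower were 1 with IL-17A, 0 with FGF2 and 2 with both factors against untreated, and 1 and 2 for both against IL-17A and against FGF2. All of these came from Cyp27a1 and Abcg5. Cyp27a1, a sterol 27-hydroxylase, had signals of 376, 289, 298 and 155 and was 2.42-fold lower with both factors than untreated. Abcg5, a partner in the sterol exporter of the brush border, had 164 untreated and 148 with FGF2 but was under the floor on both arrays with IL-17A, at least 1.82-fold lower than untreated. Genes named after their values were seen include the polyunsaturated fatty acid desaturases Fads1 (1263, 1325, 1457 and 1559) and Fads2 (598, 669, 722 and 702), higher on both arrays with FGF2 than on those without. Fads3, of the same family, went the other way (1049, 1032, 971 and 882). Acss2, which makes acetyl-CoA from acetate, was lower on the arrays with FGF2 (375, 331, 279 and 271). Over the 11 measured genes of the list's further synthesis steps the median log2 ratio was 0.01 for FGF2 against untreated and 0.07 for both factors against IL-17A.

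Some lists of cell markers also differed between the arrays, though not all in the same contrasts. Epithelial markers were present in every group, and all 7 were measured, with summed signals of 103525 to 109669. Epcam, Cdh1 and the keratins carry that sum. Vil1 (4297, 3630, 3417 and 2655) and Cdx2 (1093, 860, 816 and 871), by contrast, were lower on all 3 stimulated arrays than untreated. Enterocyte markers, 5 of 8 measured, summed to 21954 untreated, 11275 with IL-17A, 17223 with FGF2 and 8404 with both. Fibroblast markers (6 of 6) summed to 52918 and 56386 without FGF2 and 41016 and 43474 with it. Its members parted: Col1a1 (4986, 4722, 2386 and 2408) and Pdgfra (4993, 4172, 2340 and 1984) were lower with FGF2, while Dcn was highest with both factors (10810, 13120, 12918 and 15772), as was Lum (658, 784, 539 and 851). Endothelial markers (4 of 4) summed to 4294 and 4094 without and 6343 and 6819 with it. Of adipocyte markers, which matter because fat cells express much Scd1 and Fasn, the defining genes Adipoq and Lep were under the floor on all arrays, with signals of at most 27.0 and 5.99. Fabp4 (5989 to 8430), which endothelial cells also express, was highest on the combined array, and Pparg and Cidec were highest untreated. Macrophage markers (4 of 4) summed to 1331 to 1499 and glial markers (2 of 3 measured) to 691 to 840. The part of these cells in the values of the lipid genes was not tested, and fewer cells of a type cannot be told apart from less RNA per cell.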

How the data were processed

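RNA of 4 groups was measured, 1 array each, labelled from the 3′ end per the labels' protocols. Log2 signals of the probe sets were deposited; the authors made them with MAS5, per the submitters' processing notes (version not given in the sources used here). On every array the antilog signals had the same 2% trimmed mean of 500, so arrays had been scaled before the log2. Of 45101 probe sets, 64 controls were left out; 34945 had 1 gene symbol, 932 several and 9160 none. Each gene was represented by its brightest probe set with 1 symbol. Signals under the median of all signals (log2 6.49) were raised to it. Ratios are differences of log2 signals; no p-value was computed. MAS5 subtracts mismatch signal, which makes dim values noisy.

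Members and lists were chosen with earlier results of these data known. All members with a probe set were named, related genes when at least 1.5-fold different, and markers by list; Fads1, Fads2, Fads3, Acss2 and single markers were named outside this rule, after their values were seen. Alternatives were 2 scalings, 3 floors, 2 probe set rules, 2 fold thresholds, branches without Acly and Acat2, and, chosen after seeing the data, centring by signal class. Python 3.11.15, numpy 2.4.6 and pandas 2.3.3 were used; the calculation was tested on simulated data.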

Additional observations from a re-analysis of the deposited data

Results flagged for a closer look

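For 2 sterol enzymes the readings of a factor pointed in opposite directions, each by more than 1 yardstick SD. The difference was not tested. The share of all measured genes that meet this rule was not counted, so whether 2 members exceed the background is unknown. Sqle was higher with FGF2 than untreated (log2 0.22) but lower with both factors than with IL-17A (−0.14), a joint term of −0.36. Fdps was higher with IL-17A than untreated (0.15) but lower with both factors than with FGF2 (−0.22), a joint term of −0.37.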

How the results depend on the processing

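Of 252 values of branch medians and their differences under the alternatives, 236 stayed within 0.1 log2 of the reported value. Some of these could not have moved, such as the medians under a lower floor, since all members lay above the floor. Median centring moved the median of all measured genes by 0.14 for both factors against untreated. Under it, the sterol, regulator and fatty acid medians were 0.22, 0.14 and 0.44 for both factors against untreated, 0.11, 0.22 and 0.35 for both against IL-17A, and 0.15, 0.20 and 0.38 for the FGF2 average, and 2 members were at least 1.5-fold higher with both factors. When each gene's probe sets were averaged, the fatty acid median was 0.13 for both against untreated, 0.10 for both against IL-17A and 0.14 for the FGF2 average, the sterol minus fatty acid difference for that average was −0.11, and 0 members were at least 1.5-fold higher with both factors. Single genes that changed sign there by more than the yardstick SD were Mvk (−0.065, both against untreated), Idi1 (−0.038 for the FGF2 average, −0.010 for both against untreated) and Hsd17b7 (−0.065 and −0.11); Lss (0.06), Cyp51 (0.03) and Stard4 (0.07) changed sign for both against untreated by less. Without probe sets whose names mark shared or several transcripts, Hsd17b7 was at −0.29 and −0.28, the sterol median for IL-17A was 0.15, its difference from the fatty acid median 0.082 in place of −0.05, and the regulator median for both against IL-17A −0.0073. A threshold of 2-fold left 0 members higher with both factors; at a log2 difference of 0.322 3 members were higher with FGF2, 5 with both against untreated, and 2 higher and 1 lower for both against IL-17A. The fatty acid median exceeded the sterol median under every alternative for FGF2 and for both factors against untreated and for both against IL-17A. It also did so for both against FGF2, where the sterol minus fatty acid difference ran from −0.14 to −0.07. Median centring and a lower floor could not have changed this. The first moves all genes of an array alike, and all members lay above the floor. The cause of the shifts under the alternatives was not tested.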
